A study of Mus musculus with 9 samples.

Results

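The mTOR and S6 kinase growth control genes were examined in mouse hearts that overexpress the insulin-like growth factor 1 receptor (IGF1R), with or without a mutant form of the lipid kinase PI3K. The list held 9 genes: the S6 kinase genes Rps6kb1, Rps6kb2 and Rps6ka1, the translation repressor genes Eif4ebp1 and Eif4ebp2, the upstream brakes Tsc1 and Tsc2, the small GTPase gene Rheb and the kinase gene Mtor. The list was chosen by pathway with measured values in view, the high Rps6kb2 signal in IGF1R-dnPI3K hearts among them, so its values carry no test. Members were every probe set whose single gene symbol in the platform annotation was on the list. Of the 9 genes, 6 had a probe set, 12 probe sets in all, among 8251 genes with a probe set of 1 symbol. Rps6kb1, Rps6ka1 and Rheb had 0 probe sets, so of the S6 kinases named in the list the values below describe Rps6kb2 alone.

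RNA of both ventricles came from 9 female mice aged 3 months, with 1 Affymetrix array per mouse. All 9 mice carried the IGF1R transgene. In the IGF1R group (n = 3) it was the only transgene. The IGF1R-caPI3K group (n = 3) also carried a constitutively active PI3K (p110), and the IGF1R-dnPI3K group (n = 3) a dominant negative PI3K (p110). The labels mention further kinds of mice, with caPI3K only, with dnPI3K only and without a transgene. These were not analysed here, and all differences are therefore between IGF1R transgenic hearts. The labels give no promoter or strain. As background on such lines, the cardiac IGF1R and PI3K transgenes in the literature are driven by the alpha-myosin heavy chain promoter, which is active in cardiomyocytes, while the ventricle RNA comes from all its cell types.

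PI3K makes a membrane lipid that activates the kinase Akt. Akt phosphorylates tuberin, the product of Tsc2, which together with hamartin, the product of Tsc1, holds the GTPase Rheb inactive. Active Rheb switches on the mTOR kinase, which phosphorylates the S6 kinases and the repressors encoded by Eif4ebp1 and Eif4ebp2, and so raises protein synthesis and cell size, in the heart as elsewhere. Most of this control acts through phosphorylation, which an mRNA array does not measure.

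The median signal per array ran from 161 to 197, in the arbitrary units of the deposited intensities. It was highest for IGF1R (190.6 to 197.2), above all arrays of IGF1R-caPI3K (175.5 to 186.4) and IGF1R-dnPI3K (161.3 to 185.5). The main model did not adjust for this offset. The arrays were not alike in all technical respects. The 3' to 5' signal ratio of the CreX control, which is added during processing, lay between 1.05 and 1.26 for IGF1R, between 1.74 and 1.89 for IGF1R-caPI3K and between 1.79 and 1.83 for IGF1R-dnPI3K. That of Gapdh, from the sample's own RNA, lay between 0.747 and 0.818 for IGF1R and between 0.843 and 0.943 for the other 6 arrays. The IGF1R group and the processing that these ratios mark cannot be told apart in either comparison against it. The array of IGF1R-dnPI3K replicate 3 had a mean correlation with the other arrays of 0.927, the lowest of the 9. The 3' to 5' ratio of pyruvate carboxylase lay between 1.79 and 3.25 for IGF1R-dnPI3K and reached at most 1.87 on the other 6 arrays. The median SD of log2 signal within a group was 0.261 for IGF1R-dnPI3K, 0.164 for IGF1R and 0.156 for IGF1R-caPI3K. The part of these in the results was not tested. The 11 measured cardiomyocyte markers were all above 0, with a summed signal of 172305 to 256335 per array. The 9 probe sets of Y-linked genes, which mark the background in female mice, reached at most 63.9.

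Rps6kb2 encodes S6 kinase 2, which phosphorylates ribosomal protein S6 downstream of mTOR. Its 1 probe set (103825_at) gave signals of 142, 55.5 and 79.5 on the IGF1R arrays. On the IGF1R-caPI3K arrays they were 240.1, 275 and 309. On the IGF1R-dnPI3K arrays they were 328, 358 and 497. The 3 groups did not overlap, in the order IGF1R, IGF1R-caPI3K, IGF1R-dnPI3K. Every mouse with a PI3K transgene, whether active or dominant negative, lay above every mouse without one. Such separation between groups was common among all probe sets tested. The share was 32.9% for IGF1R-caPI3K against IGF1R, 34.4% for IGF1R-dnPI3K against IGF1R and 19.5% for IGF1R-caPI3K against IGF1R-dnPI3K. The gap between the highest IGF1R-caPI3K signal and the lowest IGF1R-dnPI3K signal was smaller than the SD of either group (34.5 and 89.8).

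The group means of Rps6kb2 were 92.3 ± 44.6 (SD, n = 3) for IGF1R, 275 ± 34.5 for IGF1R-caPI3K and 395 ± 89.8 for IGF1R-dnPI3K. On the log2 scale IGF1R-caPI3K mice exceeded IGF1R mice by 1.68 ± 0.31 (SE), a ratio of 3.19. IGF1R-dnPI3K mice exceeded them by 2.18 ± 0.31, a ratio of 4.54. Of the 7898 probe sets tested, 9 had a higher log2 difference in the first comparison and 5 in the second. Rps6kb2 was listed with measured values in view, so these ranks are a description and no test. Both comparisons use the same IGF1R arrays. IGF1R-caPI3K mice differed from IGF1R-dnPI3K mice by -0.51 ± 0.31. The signal of IGF1R replicate 2 (55.5) lay below the 63.9 reached by Y-linked probe sets, so the ratios rest on a level near background. Over the alternatives tried, the log2 difference from IGF1R mice ran from 1.19 to 2.04 for IGF1R-caPI3K and from 1.70 to 2.55 for IGF1R-dnPI3K.

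**Figure D1:**
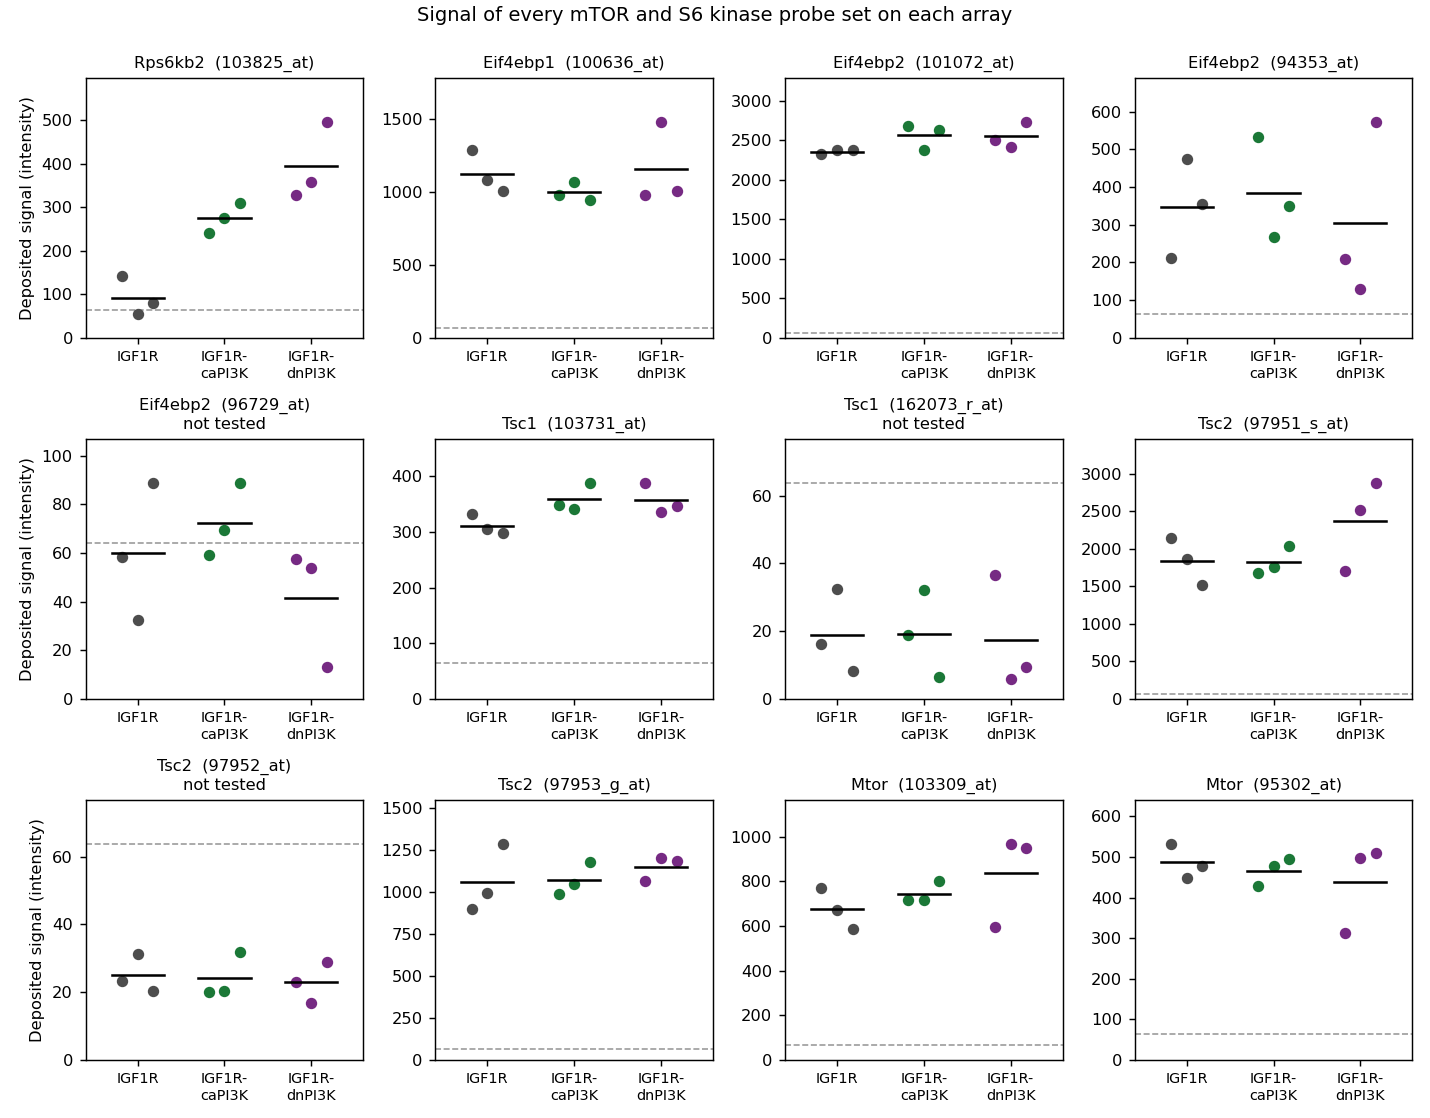
Deposited signal (linear intensity, axis from 0) of each of the 12 member probe sets on each array; points are single mice, black lines the mean of 3 mice and the dashed line the highest signal of a Y-linked probe set (63.9). Rps6kb2 alone shows 3 groups that do not overlap, and 3 probe sets marked as not tested lie near or below the dashed line.

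Some summed cell type markers differed between the same groups. The summed signal of the 3 tested red blood cell markers ran from 16932 to 18215 for IGF1R, from 19053 to 21202 for IGF1R-caPI3K and from 20611 to 36516 for IGF1R-dnPI3K. That order is the order of Hba-a1 alone, which makes up most of the sum: the log2 differences of Alas2 and Slc4a1 from IGF1R were -0.19 and -0.37 with caPI3K and -0.14 and -0.13 with dnPI3K. The sum of the 11 cardiomyocyte markers ran from 172305 to 182468, from 187788 to 201315 and from 194988 to 256335 in the same order of groups, although Ryr2 was lower than in IGF1R mice in both (-0.70 and -0.55). The sum of the 3 tested adipocyte markers was lower with caPI3K (661 to 954) than in IGF1R alone (1431 to 1654), and ran from 932 to 1598 with dnPI3K. The sum of the 8 tested endothelial markers also separated caPI3K (6330.5 to 6754) from IGF1R alone (7330.0 to 8808). In limma 6 of the 8 had an unadjusted p under 0.05, in both directions, and 0 passed. Pecam1, Cdh5, Kdr and Tek were lower (-0.57, -0.45, -0.90 and -0.40), while Vwf and Emcn were higher (0.37 and 0.39). The sum of the 7 tested skeletal muscle fibre markers ran from 30447 to 32695 for IGF1R, from 39158 to 40438.5 for IGF1R-caPI3K and from 14139 to 22344 for IGF1R-dnPI3K. The markers that passed with caPI3K, all lower than in IGF1R mice, were Ryr2, the muscle creatine kinase gene Ckm (-0.59) and the lymphocyte marker Cd79a (-1.83). Their limma adjusted p values were 0.0464, 0.0482 and 0.0178. No tested marker was at 0. The part of these markers in the Rps6kb2 values, and that of the CreX and Gapdh ratios, was not tested. In RNA of whole ventricles, fewer cells of a type and less RNA per cell cannot be told apart.

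Of the 3 genes listed as neighbours of Rps6kb2 in the RefSeq annotation, Ptprcap and Coro1b were tested and Carns1 had no probe set here. Neither Ptprcap nor Coro1b passed against IGF1R mice. Ptprcap, a lymphocyte phosphatase-associated protein gene, had signals of 293, 251 and 329.6 on the IGF1R arrays, 232, 154 and 258 on the IGF1R-caPI3K arrays and 275, 333 and 268 on the IGF1R-dnPI3K arrays. Its log2 difference was -0.47 ± 0.21 (SE) for IGF1R-caPI3K against IGF1R and 0.01 ± 0.21 for IGF1R-dnPI3K against IGF1R (limma adjusted p = 0.277 and 0.985). Coro1b, which encodes an actin-binding coronin, differed by -0.16 ± 0.15 and -0.28 ± 0.15 (limma adjusted p = 0.595 and 0.218).

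**Figure D2:**
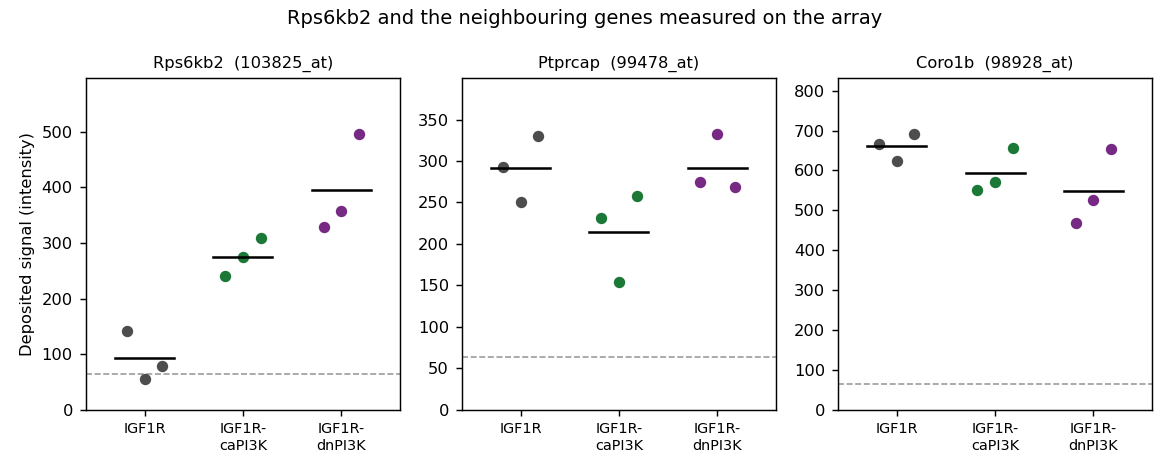
Deposited signal (linear intensity, axis from 0) of Rps6kb2 and of the neighbouring genes Ptprcap and Coro1b on each array; points are single mice, black lines the mean of 3 mice and the dashed line the highest Y-linked signal (63.9). The Rps6kb2 groups do not overlap, while those of Ptprcap overlap between IGF1R and IGF1R-dnPI3K mice.

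The genes most like Rps6kb2 over the 9 arrays, of 5936 genes read from their brightest probe set, were Bri3 (Pearson r = 0.977 of log2 signal), Irs2 (r = 0.972) and Zfp574 (r = 0.968). These are descriptions over arrays that share the 3 groups, and 72 genes had an r above 0.9. Irs2 encodes an adaptor that links the insulin and IGF1 receptors to PI3K. Its signals were 100.2, 30.9 and 55.2 on the IGF1R arrays, 122, 133 and 131 on the IGF1R-caPI3K arrays and 163, 143 and 181 on the IGF1R-dnPI3K arrays. As with Rps6kb2, its groups did not overlap and its IGF1R signals reached into the range of Y-linked probe sets. Irs2 was picked for its likeness to Rps6kb2 on these same arrays, and its rise with dnPI3K was known beforehand. The shared pattern is therefore no independent evidence. Bri3, a small membrane protein gene, was far brighter and moved less, with group means of 6836 ± 748 (SD, n = 3), 8965 ± 346 and 10207 ± 1283 in the same order of groups.

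The other 5 measured members, Eif4ebp1, Eif4ebp2, Tsc1, Tsc2 and Mtor, had 11 probe sets, of which 8 passed the filter on low values and were tested. None of the 8 passed in limma for IGF1R-caPI3K against IGF1R (0 of 8, against 0.215% of all probe sets tested), for IGF1R-dnPI3K against IGF1R (0 of 8, against 13.5%) or for IGF1R-caPI3K against IGF1R-dnPI3K (0 of 8, against 1.24%). At an unadjusted p of 0.05 the count was also 0 in each comparison, and the lowest adjusted p was 0.453, 0.252 and 0.427. Their median log2 difference was 0.07, 0.12 and -0.05, against -0.04, -0.09 and 0.05 over all probe sets tested. The 2 groups did not overlap in 2, 2 and 0 of the 8, against 32.9%, 34.4% and 19.5% of all probe sets. Leaving out IGF1R-dnPI3K replicate 1 moved the count for IGF1R-dnPI3K against IGF1R from 0 to 2, through 1 probe set each of Tsc2 and Mtor.

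Mtor encodes the kinase itself. Its brighter probe set (103309_at) gave 769, 670.1 and 588 on the IGF1R arrays, 719, 718 and 799.6 on the IGF1R-caPI3K arrays and 597, 969.5 and 951 on the IGF1R-dnPI3K arrays. IGF1R-dnPI3K replicates 2 and 3 were the highest of the 9 arrays, while replicate 1 lay near the lowest, so the group spans the others. The mouse numbers of replicates 2 and 3 lie in a range that no other group has. Replicate 1 shares its range with mice of both other groups. For replicates 2 and 3, genotype and mouse number range cannot be told apart. Against IGF1R mice the log2 difference was 0.29 ± 0.19 (SE) in IGF1R-dnPI3K mice, with a 95% interval of the ratio from 0.915 to 1.63, and 0.15 ± 0.19 in IGF1R-caPI3K mice, with 0.831 to 1.48. The former difference rests on single arrays: it was 0.52 and passed without IGF1R-dnPI3K replicate 1, 0.16 and 0.18 without its replicates 2 and 3, and 0.19 without IGF1R replicate 3. With all arrays brought to one median it was 0.46, and with the range of the mouse numbers as a block, which compares IGF1R-dnPI3K replicate 1 with the rest, it was -0.05.

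The other Mtor probe set (95302_at) gave 533, 448 and 479 on the IGF1R arrays, 427, 477 and 495 on the IGF1R-caPI3K arrays and 311.5, 497 and 509.7 on the IGF1R-dnPI3K arrays. Its log2 difference from IGF1R mice had the other sign, -0.18 ± 0.19 (SE) in IGF1R-dnPI3K mice (95% interval of the ratio 0.662 to 1.18) and -0.06 ± 0.19 in IGF1R-caPI3K mice (0.719 to 1.28). On both Mtor probe sets replicate 1 was the lowest IGF1R-dnPI3K array. IGF1R-caPI3K and IGF1R-dnPI3K mice differed by -0.14 ± 0.19 on the brighter and by 0.12 ± 0.19 on the dimmer probe set.

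Tsc2 encodes tuberin, whose GTPase-activating domain turns Rheb off. Its brightest probe set (97951_s_at, a suffix that marks possible shared targets) gave 2148, 1857 and 1511 on the IGF1R arrays, 1676, 1757 and 2034 on the IGF1R-caPI3K arrays and 1699, 2512 and 2882 on the IGF1R-dnPI3K arrays. As with Mtor, IGF1R-dnPI3K replicates 2 and 3, whose mouse number range no other group has, were the highest of the 9 arrays. Replicate 1 lay among the other groups. The log2 difference between IGF1R-dnPI3K and IGF1R mice was 0.34 ± 0.19 (SE, 95% interval of the ratio 0.941 to 1.71). It was 0.56 and passed without IGF1R-dnPI3K replicate 1, and was 0.18 without its replicate 3, 0.21 without IGF1R replicate 3 and 0.09 with the mouse number block. IGF1R-caPI3K and IGF1R mice differed by 0.00 ± 0.19 on this probe set (ratio 0.741 to 1.34).

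A further Tsc2 probe set (97953_g_at) gave 894, 994 and 1286 on the IGF1R arrays, 988, 1044 and 1175 on the IGF1R-caPI3K arrays and 1062, 1200.5 and 1184 on the IGF1R-dnPI3K arrays. All 3 groups overlapped. The log2 difference from IGF1R mice was 0.13 ± 0.15 (SE) in IGF1R-dnPI3K mice and 0.03 ± 0.15 in IGF1R-caPI3K mice. The last Tsc2 probe set (97952_at), with 16.9 to 31.9 over the 9 arrays, lay below the highest Y-linked signal on each of them and was not tested. Tsc2 overlaps the polycystin gene Pkd1 at its end in the RefSeq annotation. The Pkd1 probe set differed by -0.16 ± 0.23 between IGF1R-dnPI3K and IGF1R mice (limma adjusted p = 0.667).

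Tsc1 encodes hamartin, which stabilises tuberin. Its tested probe set (103731_at) gave 332, 305 and 298 on the IGF1R arrays, 348, 341 and 388 on the IGF1R-caPI3K arrays and 389, 336 and 348 on the IGF1R-dnPI3K arrays. All 6 mice with a PI3K transgene lay above all 3 IGF1R mice, by a small margin, and the 2 groups with a PI3K transgene overlapped. The log2 difference from IGF1R mice was 0.20 ± 0.14 (SE) in both groups, and neither passed (limma adjusted p = 0.453 and 0.341). The 95% intervals allow ratios from 0.936 to 1.42 for IGF1R-caPI3K and from 0.932 to 1.41 for IGF1R-dnPI3K. The other Tsc1 probe set (162073_r_at) ran from 5.9 to 36.6, below the highest Y-linked signal on every array, and was not tested.

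Eif4ebp2 and Eif4ebp1 encode small proteins that bind the cap-binding factor eIF4E and block translation until mTOR phosphorylates them. The brightest Eif4ebp2 probe set (101072_at) gave 2318, 2368 and 2374 on the IGF1R arrays, 2678, 2376 and 2632 on the IGF1R-caPI3K arrays and 2499, 2412 and 2733 on the IGF1R-dnPI3K arrays. The lowest array of either PI3K group lay just above the highest IGF1R array, and the highest of the 9 arrays was 1.18 times the lowest, the narrowest range of any member probe set. The log2 difference from IGF1R mice was 0.12 ± 0.10 (SE) for IGF1R-caPI3K and 0.11 ± 0.10 for IGF1R-dnPI3K (limma adjusted p = 0.549 and 0.462). The 95% intervals of the ratio were 0.934 to 1.27 and 0.929 to 1.26.

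The second Eif4ebp2 probe set (94353_at) was the most variable of those tested apart from Rps6kb2. It gave 212, 474 and 354 on the IGF1R arrays, 533, 268 and 349 on the IGF1R-caPI3K arrays and 208, 129.5 and 574 on the IGF1R-dnPI3K arrays. The lowest and the highest of all 9 signals were both in IGF1R-dnPI3K mice, and all groups overlapped. Its difference between IGF1R-dnPI3K and IGF1R mice, -0.40 ± 0.49 (SE), had a 95% interval of the ratio from 0.359 to 1.60, so it bounds little. The third probe set (96729_at), at 13.1 to 88.9, exceeded the highest Y-linked signal on 3 of 9 arrays and was not tested.

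Eif4ebp1, read by 1 probe set (100636_at), gave 1286, 1084 and 1006 on the IGF1R arrays, 980.2, 1069 and 946 on the IGF1R-caPI3K arrays and 978, 1480.4 and 1002 on the IGF1R-dnPI3K arrays. Replicate 2 of the IGF1R-dnPI3K group was the highest of the 9, and all groups overlapped. The log2 difference from IGF1R mice was -0.17 ± 0.17 (SE, 95% interval of the ratio 0.689 to 1.15) for IGF1R-caPI3K and 0.02 ± 0.17 (0.783 to 1.31) for IGF1R-dnPI3K. Between IGF1R-caPI3K and IGF1R-dnPI3K mice it was -0.18 ± 0.17 (0.681 to 1.14).

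**Figure D3:**
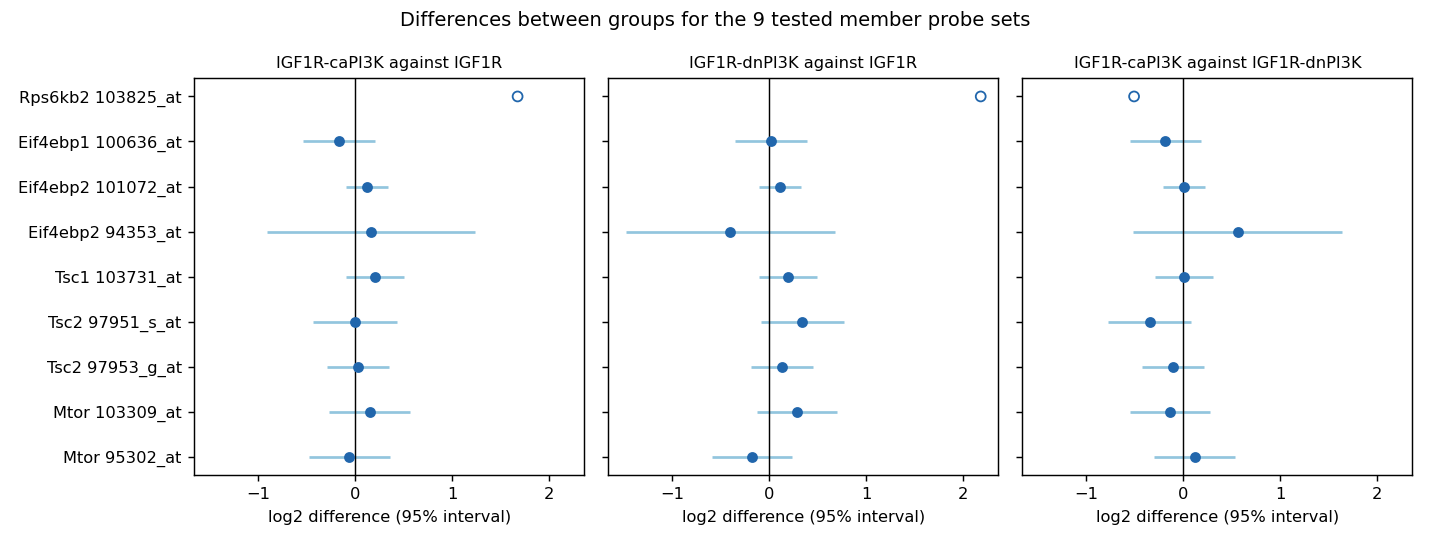
Log2 difference between groups for the 9 tested member probe sets in the 3 comparisons; lines are 95% intervals from the model of all 9 arrays, and Rps6kb2, drawn as an open circle, has none because its values are a description. Every interval drawn includes 0, and the widest are those of Eif4ebp2 94353_at.

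The Eif4ebp2 probe set 94353_at was most like Ccnf, a cyclin gene (r = 0.886 over 9 arrays), Bak1 (r = 0.867) and Plxna1 (r = 0.850). The Tsc2 probe set 97951_s_at was most like Snx21 (r = 0.958), Ndufa2 of respiratory complex I (r = 0.953) and Gtf2i (r = 0.936). The group means of Ndufa2 were 3253 ± 343 (SD, n = 3) for IGF1R, 3056 ± 227 for IGF1R-caPI3K and 3719 ± 497 for IGF1R-dnPI3K. An r above 0.9 was reached by 0 genes for this Eif4ebp2 probe set and by 17 for this Tsc2 probe set.

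The wider mTOR pathway was read from 104 other genes, of which 66 had a probe set and 62 were tested by their brightest one. In IGF1R-dnPI3K against IGF1R mice 9 rose and 2 fell in limma, 17.7% of the 62 against 13.7% of all genes tested that way (6.24% higher and 7.47% lower). The 9 include Igf1r, Irs2, Akt2 and Gsk3a, whose rises were known when the lists were made. Without these 4, 5 rose and 2 fell of 58, or 12.1%, so the share above background rests on genes already known. The median log2 difference of the 62 was 0.06, against -0.08 over all genes. In IGF1R-caPI3K against IGF1R mice 0 of the 62 passed in limma, with 7 at an unadjusted p under 0.05, against 0.202% of all genes passing (0.151% higher and 0.0505% lower). In IGF1R-caPI3K against IGF1R-dnPI3K mice 0 passed, with 11 at an unadjusted p under 0.05, against 1.33% (0.774% higher and 0.555% lower). The groups did not overlap in 19, 21 and 13 of the 62 for IGF1R-caPI3K against IGF1R, IGF1R-dnPI3K against IGF1R and IGF1R-caPI3K against IGF1R-dnPI3K, against 32.9%, 35.0% and 19.9% of all genes. The count of 11 for IGF1R-dnPI3K rests on single arrays and on the arrays that share the estimate of spread. It was 3, 3 and 1 without IGF1R replicates 1, 2 and 3, and 5, 6 and 7 without IGF1R-caPI3K replicates 1, 2 and 3. It was 4 without IGF1R-dnPI3K replicate 3 and 1 with only the 6 arrays compared. With all arrays brought to one median, the median difference over all probe sets shifted by 0.17 for IGF1R-dnPI3K and by 0.10 for IGF1R-caPI3K, each against IGF1R. For IGF1R-dnPI3K the calls over all probe sets then went from 450 higher and 616 lower to 832 higher and 333 lower, and those of the pathway genes to 11 higher and 0 lower. Quantile normalization moved them less, to 491 higher and 510 lower over all probe sets and 9 higher and 3 lower for the pathway genes.

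The counts by list that follow are descriptions beside the 6.24% of all genes that were higher and the 7.47% that were lower. Of 7 tested genes of upstream kinases and lipid signalling, 3 rose in IGF1R-dnPI3K mice: Igf1r, Irs2 and Akt2, all known beforehand and no independent evidence. Igf1r, the receptor gene that is also the shared transgene, gave 986, 868 and 854 on the IGF1R arrays, 1199, 1282 and 933 on the IGF1R-caPI3K arrays and 1977, 1660.2 and 1679.6 on the IGF1R-dnPI3K arrays, the last group above all others. Its log2 rise was 0.97 ± 0.14 (SE, limma adjusted p = 0.00827); whether the probe set reads the transgene was not tested. Irs2, whose signals are given above, rose by 1.52 ± 0.38 (adjusted p = 0.0289), with 0.55 to 1.93 over the alternatives.

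Akt2, the Akt isoform best known for insulin-stimulated glucose uptake, gave 1176, 968 and 970.4 on the IGF1R arrays, 1592, 1527 and 1642 on the IGF1R-caPI3K arrays and 1895, 1565 and 2533 on the IGF1R-dnPI3K arrays. All 6 mice with a PI3K transgene lay above the IGF1R mice. It rose in IGF1R-dnPI3K mice by 0.92 ± 0.16 (SE, limma adjusted p = 0.0136), while the difference of 0.62 ± 0.16 in IGF1R-caPI3K mice, the lowest p of the 62 genes there, did not pass (adjusted p = 0.103). The other low p values of that comparison belonged to Ppp2cb (-0.65 ± 0.20) and Irs2 (1.19 ± 0.38), at adjusted p values of 0.134 and 0.142.

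Of 14 tested genes of the Rag GTPases and amino acid inputs, which bring mTOR to the lysosome, 2 rose and 1 fell in IGF1R-dnPI3K mice. Rraga, which encodes the Rag GTPase RagA, gave 1002, 1434 and 966 on the IGF1R arrays, 1167, 991 and 1131 on the IGF1R-caPI3K arrays and 1631, 1779 and 1681 on the IGF1R-dnPI3K arrays, a rise of 0.60 ± 0.15 (SE, limma adjusted p = 0.0299). The 3 IGF1R-dnPI3K arrays lay above the other 6. Lamtor5, a subunit of the Ragulator complex that anchors the Rag GTPases, gave 1429, 1349.6 and 1297 on the IGF1R arrays, 907, 1109 and 1136 on the IGF1R-caPI3K arrays and 1053, 924 and 707 on the IGF1R-dnPI3K arrays. It fell by 0.62 ± 0.16 on the log2 scale (adjusted p = 0.0296). With one common median neither Lamtor5 nor any other pathway gene passed as lower.

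Among 16 translation targets 1 rose, Maf1, the repressor of RNA polymerase III, which mTOR inhibits. Its signals were 1730.5, 1954 and 1386 on the IGF1R arrays, 2369, 1956 and 2816 on the IGF1R-caPI3K arrays and 2328, 2640.1 and 3838 on the IGF1R-dnPI3K arrays, a rise of 0.78 ± 0.20 (SE, limma adjusted p = 0.0336) in the last against the first. Among 13 other targets and phosphatases 1 rose and 1 fell. Ppp2cb, a catalytic subunit of protein phosphatase 2A, went from 1273, 1524 and 1427 on the IGF1R arrays to 1053, 970.3 and 579 on the IGF1R-dnPI3K arrays, with 817, 922 and 954 on the IGF1R-caPI3K arrays, and fell by 0.74 ± 0.20 on the log2 scale (adjusted p = 0.0368).

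The 4 other genes that passed, named after their values were seen, were Flcn (0.55 ± 0.15), which encodes the Rag regulator folliculin, the phosphatase scaffold gene Ppp2r1a (0.47 ± 0.13), Prkab1, a subunit of AMP-activated kinase (0.44 ± 0.13), and the glycogen synthase kinase gene Gsk3a (0.44 ± 0.13). Of 7 genes of energy and stress inputs, Prkab1 and Gsk3a were the 2 that rose. Igf1r passed in 20 of 21 alternatives and Akt2 in 18, against 8 each for Prkab1 and Gsk3a. Flcn passed in 9, Ppp2cb in 10, Ppp2r1a in 11, Lamtor5 and Maf1 in 12 each and Rraga in 13. Irs2 passed in 14 of 20. No sign turned. None of 3 genes of the mTOR complexes passed in limma in IGF1R-dnPI3K mice (1 had an unadjusted p under 0.05). The list of other ribosomal S6 kinases had 2 tested genes, Rps6kc1 and Sgk1. Neither passed (0 had an unadjusted p under 0.05). Sgk1 is not a ribosomal S6 kinase gene, so the list reads 1 such gene. Rps6kc1 was dim, with signals from 65.0 to 177.3. In IGF1R-dnPI3K mice it differed from IGF1R mice by -0.69 ± 0.35 (SE). In IGF1R-caPI3K against IGF1R-dnPI3K mice the lowest p values belonged to Igf1r (-0.65 ± 0.14), Rraga (-0.63 ± 0.15) and Prkab1 (-0.47 ± 0.13), at adjusted p values in limma of 0.0582, 0.0848 and 0.111.

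**Figure D4:**
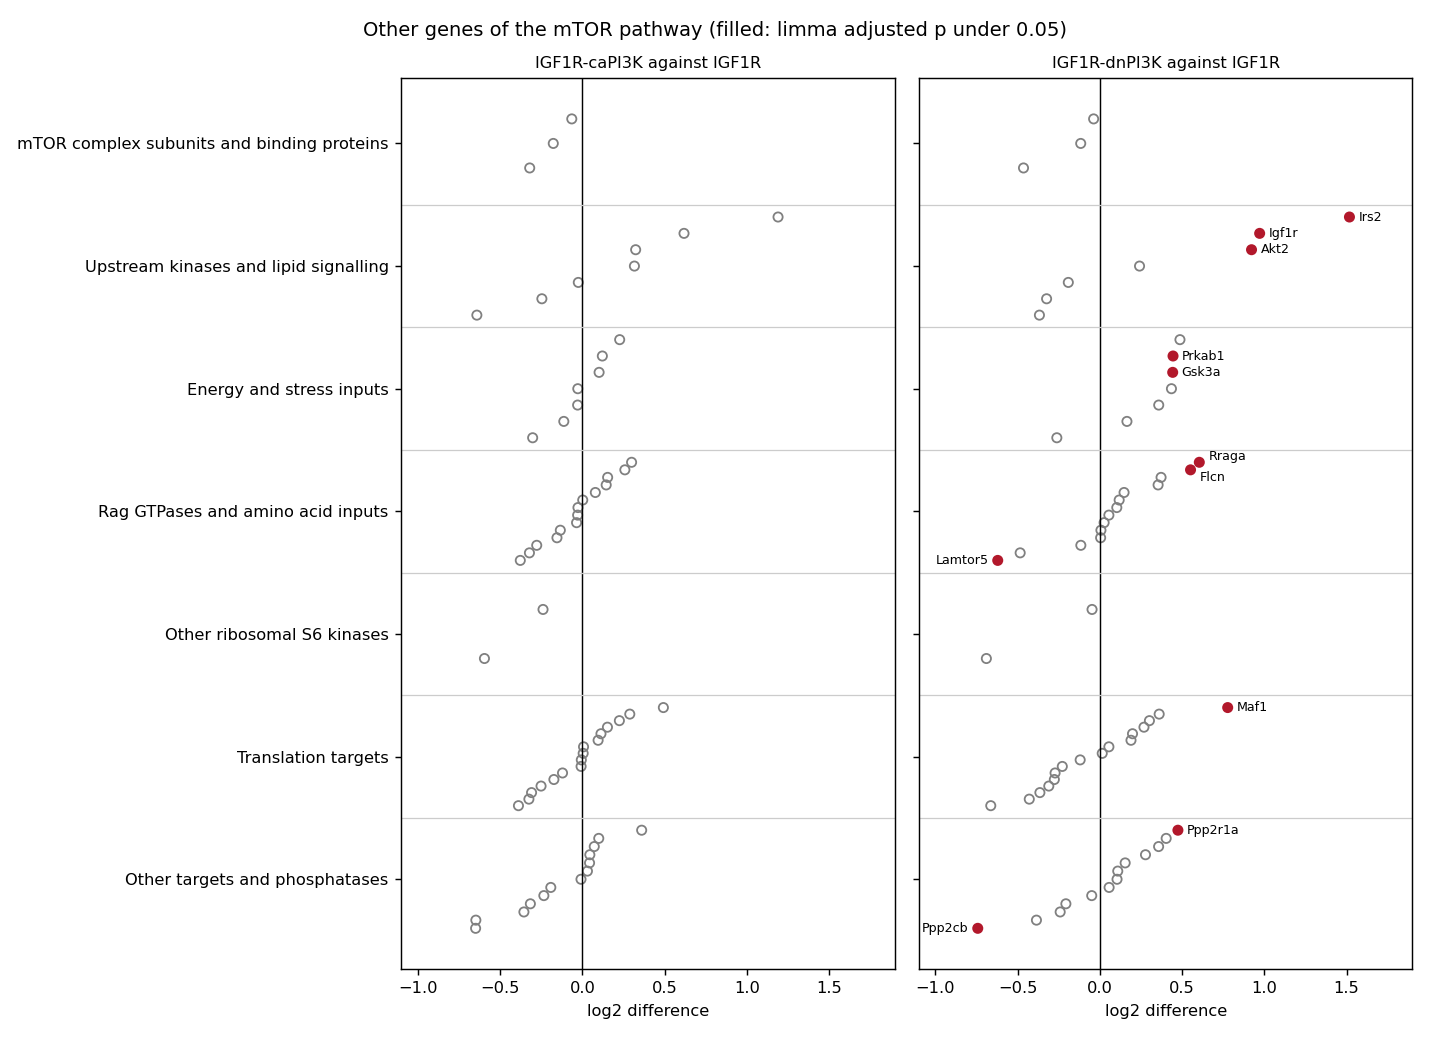
Log2 difference of the 62 tested genes of the wider mTOR pathway, by function, in IGF1R-caPI3K against IGF1R mice (left) and IGF1R-dnPI3K against IGF1R mice (right); each circle is 1 gene and filled circles passed in limma at an adjusted p under 0.05. The 11 filled circles, 9 to the right of 0 and 2 to the left, are all in the right panel.

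Markers of other cell types moved with IGF1R-dnPI3K in this same comparison. The summed signal of 9 fibroblast markers ran from 31935 to 34662 for IGF1R, from 34332 to 38137 for IGF1R-caPI3K and from 24307 to 28333 for IGF1R-dnPI3K, with 4 markers falling and 1 rising. That of 7 macrophage and myeloid markers ran from 6250 to 7032, from 6827 to 7265 and from 3888.5 to 5817 in the same order, with 3 falling. Of 8 endothelial markers 1 rose and 2 fell (7330.0 to 8808 for IGF1R, 6419 to 7701 for IGF1R-dnPI3K), and of 6 smooth muscle markers 0 passed (2 at an unadjusted p under 0.05 in limma; 3044 to 3744 and 3785 to 4864). Of 7 skeletal muscle fibre markers 1 rose and 4 fell (30447 to 32695 and 14139 to 22344), of 11 cardiomyocyte markers 5 rose and 1 fell, and of 2 lymphocyte markers 0 passed (1 at an unadjusted p under 0.05; 317 to 545.5 and 374 to 659.6). None of the 3 adipocyte and 3 red blood cell markers passed (1 each at an unadjusted p under 0.05). The part of these shifts in the pathway genes was not tested.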

How the data were processed

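The 9 arrays were grouped by their titles, which give the genotype and a mouse number. For every probe set the deposited values are linear intensities, which the authors appear to have scaled per array, since the trimmed means of the arrays lie close together. The summary algorithm was not given in the sources used here. Of 12488 probe sets, 66 controls were left out, and genes were named only from the 10833 with 1 symbol. Intensities under 32.4, the 20th percentile, were set to that value before log2. A probe set was tested (7898) if on 3 or more arrays it exceeded that array's 40th percentile. The main model used the deposited values without further normalization between arrays. All 9 arrays entered one model in limma 3.58.1 (R 4.3.3) with a variance trend, with Benjamini-Hochberg adjustment over all probe sets tested, at 0.05. The model was tested on simulated data that gave each probe set the same spread in every group. That test does not cover groups of unequal spread. P-values set a difference between groups against the spread between mice within groups, estimated jointly for all 3 groups. The median SD of log2 signal was 0.261 for IGF1R-dnPI3K, 0.164 for IGF1R and 0.156 for IGF1R-caPI3K, so the shared estimate is not each group's own. With 3 arrays a group the precision is limited.

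The members and lists were chosen with earlier results of these data known. Pathway genes were named by size: per comparison, up to 5 in each direction that passed without overlap of the groups or, with under 3 passing, the 3 lowest p. Likeness searches used the 3 tested member probe sets with the widest range of group means. Alternatives covered normalization, low values, filter, variance model, arrays in the fit, mouse number range and each array left out. RefSeq (GRCm38.p6) gave neighbouring genes only.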

Additional observations from a re-analysis of the deposited data

How the results depend on the processing

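Over 21 other settings, 502 of 504 recomputed differences of the members other than Rps6kb2 kept their side of the threshold, with sign changes of differences smaller than their SE not counted; the 2 exceptions, Tsc2 and Mtor without IGF1R-dnPI3K replicate 1, are given above. Leaving out single arrays gave 0 to 2 members called in IGF1R-dnPI3K against IGF1R. For the pathway genes in that comparison (11), the count was 2 with no filter, 3 with a variance without trend and 1 with only the 2 groups compared. It was 7 of 58 without the 4 genes whose rise was known (added after seeing the data), and 1 to 16 without single arrays. With the mouse number range as a block, IGF1R-dnPI3K replicate 1 is the one array of its group that shares a range with IGF1R mice. It alone carries that comparison, so no count is given. In IGF1R-caPI3K against IGF1R (0), it was 4 with array weights, 4 with only the 2 groups compared and 0 to 3 without single arrays (3 without IGF1R-dnPI3K replicate 3). In IGF1R-caPI3K against IGF1R-dnPI3K (0), it was 1 after scaling to a common median, 1 with a filter at the 60th percentile, 2 with array weights and 0 to 2 without single arrays. The cause of these shifts was not tested. No paired analysis was possible because the replicate numbers follow deposit order and the titles give no number shared by mice of different groups; the block above uses ranges of mouse numbers, which do not match mice one to one. Signals near the Y-linked level, as for Rps6kb2 in IGF1R mice, limit the size of a ratio.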
